A study of Mus musculus with 6 samples.

Results

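The 14-3-3 proteins of the mouse are encoded by 7 genes, Ywhab, Ywhae, Ywhag, Ywhah, Ywhaq, Ywhaz and Sfn, and their RNA was followed here in the cerebral cortex of young adult and old mice. The genes were picked by symbol, as 7 of 55421 deposited genes, because their difference between the ages was already known from these same libraries. That difference is therefore given as a description without a test. The libraries came from the cortex of male wild-type (WT) C57BL/6J mice, 3 of them 6 months old and 3 of them 24 months old by the study's account. Each label carries its own number. All 6 mice received the same standard diet, and isoflurane anesthesia preceded cervical dislocation in both age groups. Each library was bulk RNA of powdered frozen cortex, so that fewer cells of a type and less RNA per cell cannot be told apart. Libraries are named below by the age and the number in their labels, which is taken as the number of the mouse.

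Proteins of this family work as dimers, either of 1 kind of subunit or of a pair of different ones, and each subunit holds a groove that binds phosphorylated serine or threonine in other proteins. By binding, they hold transcription regulators in the cytoplasm, keep kinases in an inactive or an active shape, or mask signals that send channels to the surface. They are among the most abundant soluble proteins of the brain, and the Ywha symbols refer to their activation of tyrosine and tryptophan hydroxylase, the enzymes that start monoamine synthesis. Neurons release them into the cerebrospinal fluid when they are destroyed rapidly, as in prion disease. Sfn, also called stratifin or 14-3-3 sigma, is mainly a gene of stratified epithelium.

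The coding sequences are shown because reads can be assigned to 1 member only where the members differ. In the GRCm38 annotation (GENCODE vM21), the coding sequences of the principal transcripts held 735 to 765 bases without the stop codon, or 245 residues in Ywhaq and Ywhaz, 246 in Ywhab and Ywhah, 247 in Ywhag, 248 in Sfn and 255 in Ywhae. The genes span chr2:163994960-164018588 (Ywhab), chr11:75732869-75765845 (Ywhae), chr5:135908409-135934616 (Ywhag), chr5:33018816-33027966 (Ywhah), chr12:21390071-21417637 (Ywhaq), chr15:36770770-36796929 (Ywhaz) and chr4:133600556-133602168 (Sfn). Ywhag and Ywhah were the closest pair, with 79.0% of aligned coding bases identical, followed by Ywhab and Ywhaz with 75.0%. Ywhae and Ywhaz were the most distant, with 65.2%. The stretch of 60 coding bases with the highest mean identity over all pairs (78.2%) is printed below, each 5′ to 3′ on the coding strand, with capitals marking bases that differ from Ywhah. It lies in exon 4 of Ywhab (chr2:164015296-164015355, plus strand), exon 4 of Ywhae (chr11:75756938-75756997, plus), exon 2 of Ywhag (chr5:135911181-135911240, minus), exon 2 of Ywhah (chr5:33026953-33027012, plus), exon 4 of Ywhaq (chr12:21396321-21396380, minus), exon 5 of Ywhaz (chr15:36775455-36775514, minus) and the single exon of Sfn (chr4:133601221-133601280, minus).
Ywhah: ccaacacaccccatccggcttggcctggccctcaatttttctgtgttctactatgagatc
Ywhag: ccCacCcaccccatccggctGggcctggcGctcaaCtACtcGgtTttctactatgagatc
Ywhaz: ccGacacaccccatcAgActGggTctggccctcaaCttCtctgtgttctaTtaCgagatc
Ywhab: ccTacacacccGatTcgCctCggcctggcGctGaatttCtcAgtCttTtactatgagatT
Ywhaq: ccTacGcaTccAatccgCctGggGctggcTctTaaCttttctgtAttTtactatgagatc
Sfn: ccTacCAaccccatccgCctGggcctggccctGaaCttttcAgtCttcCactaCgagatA
Ywhae: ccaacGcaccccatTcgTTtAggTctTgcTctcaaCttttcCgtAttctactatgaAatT

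Even in this stretch, each of the other 6 genes differed from Ywhah at 9 to 13 of the 60 bases. Over whole transcripts, the members shared 0 windows of 69 bases with each other, which is the length of a read after the clipping at both ends. Some members did share such windows with other annotated genes, and reads from those windows map, for most of them, to more than 1 place and were then not counted. The share of windows found in another annotated gene was 0% for Ywhab, Ywhae and Ywhag, 6.19% for Ywhah, 8.93% for Sfn, 14.1% for Ywhaz and 25.05% for Ywhaq. The levels of Ywhaq and Ywhaz given below may therefore be understated against those of the other members. The gene sharing most windows was a processed pseudogene in each case, namely Gm12428 for Ywhah, Gm7850 for Sfn, Gm4202 for Ywhaz and Gm2423 for Ywhaq. Gm4202 held 187 to 267 counts per library, and Gm2423 held 10 to 20. The named pseudogenes Ywhaq-ps2 and Ywhaq-ps3 held 0 to 6 counts per library, against 5072 to 7176 for Ywhaq. Of the 765 windows of Ywhaq found in another gene, 113 lay in the antisense gene Gm4419, which covers the same bases, so that these need not map to another place. The first exon of Ywhaq is thus overlapped by a gene of at most 105 counts, and since the library kit does not mark strand, reads in the overlap cannot be assigned to either gene by strand.

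The promoters of Ywhah and Ywhag are shown because the patterns of this pair over the 6 libraries were the most alike in the family, and that of Sfn because its level stood far below the others. RefSeq promoter sequences (GRCm38.p6) matched 5 of the 7 members, Sfn, Ywhae, Ywhag, Ywhah and Ywhaq. Each sequence below is the 250 bases before the annotated start, 5′ to 3′ on the strand of the gene, with capitals marking the GC box GGGCGG, the CCAAT box CCAAT and the core TGACG of the cAMP response element, on either strand. They are Ywhah at chr5:33018566-33018815 (plus strand), Ywhag at chr5:135934642-135934891 (minus) and Sfn at chr4:133602169-133602418 (minus).
Ywhah: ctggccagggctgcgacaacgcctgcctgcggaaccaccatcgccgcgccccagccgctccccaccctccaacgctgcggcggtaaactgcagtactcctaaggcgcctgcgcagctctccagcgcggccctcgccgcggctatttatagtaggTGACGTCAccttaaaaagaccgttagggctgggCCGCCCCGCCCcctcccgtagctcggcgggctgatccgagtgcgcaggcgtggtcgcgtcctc
Ywhag: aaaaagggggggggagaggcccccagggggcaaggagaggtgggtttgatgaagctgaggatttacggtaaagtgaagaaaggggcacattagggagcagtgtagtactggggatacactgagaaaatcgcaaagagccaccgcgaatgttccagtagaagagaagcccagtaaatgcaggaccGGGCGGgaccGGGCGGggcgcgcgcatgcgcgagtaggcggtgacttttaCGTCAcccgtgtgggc
Sfn: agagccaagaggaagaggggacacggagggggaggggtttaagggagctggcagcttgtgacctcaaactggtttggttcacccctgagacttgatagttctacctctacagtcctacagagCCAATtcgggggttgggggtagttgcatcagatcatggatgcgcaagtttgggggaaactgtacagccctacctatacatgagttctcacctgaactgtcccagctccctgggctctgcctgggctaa

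The Ywhah promoter held 2 GC boxes that overlap each other, 1 TATAAA on the strand opposite to the gene (TTTATA as printed) and 1 full cAMP response element, TGACGTCA, the site bound by CREB. The core TGACG lies in it on both strands. Counted on either strand, the full element occurred in 1.55% of 32851 mouse promoters of this length, TATAAA in 12.4%, the GC box in 32.7% and TGACG in 17.8%. The Ywhag promoter held 2 GC boxes, 1 TGACG and 1 match to the palindromic core of the NRF1 site, which occurred in 0.782% of promoters. In Sfn, 1 CCAAT box was found (33.8% of promoters) and no GC box. GC content was 73.2% for Ywhae, 68.8% for Ywhah, 65.2% for Ywhaq, 58.4% for Ywhag and 54.4% for Sfn, beside a median of 52.4% over all promoters. The RefSeq starts need not be those of the gene spans given above. Most of the Ywhaq window (chr12:21417437-21417686, minus strand) lies inside its gene span. The Ywhae window (chr11:75732637-75732886, plus) reaches a few bases into its own. The ratio of observed to expected CpG pairs was 0.166 in Sfn and 0.860 to 1.00 in the 4 Ywha promoters, beside a median of 0.373. These matches describe letters in the window and carry no information on binding.

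Depth was 29495379 to 36494240 counts per library. Neuron markers were abundant in every library (Snap25 at 1997 to 2982 TPM, a unit of counts by gene length). That the tissue was cortex rests on the labels, since neuron markers do not set cortex apart from other brain regions. Genes with at least 1 count numbered 33974 to 35651 at 6 months and 40208 to 43561 at 24 months, and 2060 sensory receptor genes, which the cortex hardly uses, stood between 0.0197 and 0.0227 CPM (counts scaled to library size) for each exonic kb in the young libraries and between 0.0540 and 0.0924 in the old ones. The scaling factors of edgeR (TMM) followed the same split, 0.921 to 0.946 against 1.04 to 1.10, and with them the median log2 fold change between the ages was 0.15 over all 32905 genes tested, -0.14 over the 15761 genes above 1 CPM and -0.20 over the 864 most abundant genes (200 TPM or more on average). With library totals in place of TMM these medians were 0.33, 0.05 and -0.01. Each age difference of a 14-3-3 gene is therefore read against those medians, and the part of the low-level signal at 24 months in them was not tested.

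Levels of the 7 genes were compared in TPM, the deposited unit, in which counts are divided by the exonic length of a gene and scaled to 1 total for all libraries. Ywhae had the highest mean level, 2209 TPM, and was the gene of rank 28 of all genes. Ywhah (1278 TPM, rank 61), Ywhaz (1189 TPM, rank 67) and Ywhab (1015 TPM, rank 83) followed. Ywhag stood at 552 TPM (rank 223) and Ywhaq at 216 TPM (rank 786), whereas Sfn stood at 1.20 TPM (rank 17944).

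**Figure D1:**
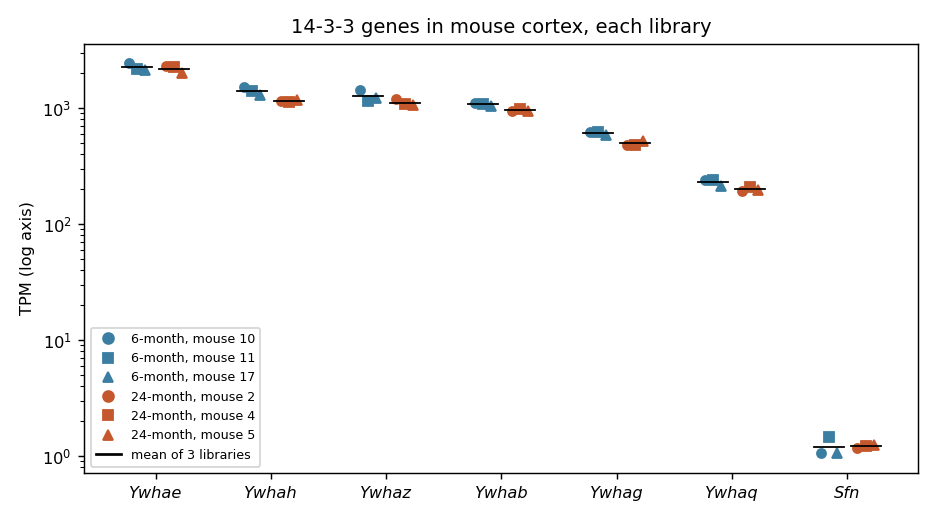
TPM (log axis) of the 7 14-3-3 genes in each of the 6 libraries, with blue symbols for the 3 mice of 6 months, orange symbols for the 3 mice of 24 months and a black line at each mean. Mean levels run from 2209 TPM for Ywhae to 1.20 TPM for Sfn, a far wider range than any difference between the ages.

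The plot of levels by library shows how far apart neighbours in this order were. Each was compared with the next within each library on the log2(TPM + 1) scale, by an exact two-sided sign-flip permutation test over the 6 libraries, with Benjamini-Hochberg adjustment over the 6 neighbouring pairs. The smallest p this design can give is 0.03125. The order itself was set by the mean TPM of these same libraries, so p measures only how steady each difference was between libraries. Ywhae exceeded Ywhah in 6 of 6 libraries, by 0.80 on average (1.74-fold, adjusted p = 0.0375). Ywhah exceeded Ywhaz by 0.10 and in 5 of 6 libraries only, so their order was not resolved (exact permutation p = 0.0625, adjusted p = 0.0625). Ywhaz exceeded Ywhab by 0.22 in 6 of 6 libraries (exact permutation test, adjusted p = 0.0375), although their TPM ranges overlapped between libraries. Ywhab exceeded Ywhag by 0.88, Ywhag exceeded Ywhaq by 1.35 and Ywhaq exceeded Sfn by 6.62, in 6 of 6 libraries each and with the same adjusted p of 0.0375 by the exact test.

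The top of this order depends on the length used. The deposited values divide by all annotated exons of a gene, retained introns included, which is 3709 bases for Ywhah beside 1764 bases for its principal transcript, and 2568 beside 2100 bases for Ywhae. With the length of the longest principal transcript, an alternative chosen after seeing the data, the mean level was 2701 for Ywhae and 2687 for Ywhah, and the difference of 0.01 on the log2 scale went either way in 3 libraries each (exact permutation test, adjusted p = 0.844). Ywhah then exceeded Ywhaz by 0.85 in 6 of 6 libraries (exact permutation test, adjusted p = 0.0375), and the other 4 neighbours kept their order.

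Sfn, the epithelial member, had 15, 23 and 16 counts in the libraries of mice 10, 11 and 17 (6 months) and 16, 18 and 18 counts in those of mice 2, 4 and 5 (24 months). In TPM these were 1.05, 1.46 and 1.07 against 1.16, 1.23 and 1.25, so the ages overlapped. Of the 5 keratins among the markers of stratified epithelium, those of its basal layer were at or near 0 in the same libraries, Krt5 at 0 to 0.267 TPM, Krt14 at 0.0583 to 0.200 TPM and Krt15 at 0 to 0.399 TPM. Those of the upper layers were not, with Krt1 at 2.93 to 6.09 TPM and Krt10 at 19.0 to 23.3 TPM. The desmosomal cadherin Dsg3, at 0.0147 to 0.0650 TPM at 6 months and 0.256 to 0.337 TPM at 24 months and never above 20 counts, was the 1 marker of the 8 past a false discovery rate (FDR) of 10%, and it was higher. Of all genes tested, 10.0% were called higher at that threshold, so nothing is read from this count. Over the 8 markers of stratified epithelium the summed level was 35.3 to 41.5 TPM at 6 months and 37.8 to 39.6 TPM at 24 months, most of it from Krt10 and Perp.

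At 24 months, 4 of the 7 genes, Ywhag, Ywhah, Ywhab and Ywhaq, had a lower TPM in each old library than in any young one. Ywhag and Ywhah differed most, with mean TPM 18.7% lower in each. Ywhae, the most abundant member, was only 2.81% lower and overlapped, as did Ywhaz. The first 4 are given by library below. Of all genes tested, 8.65% were lower without overlap in TPM, and of the 864 most abundant ones, 29.5%. The family was chosen for this contrast, so nothing is read from these counts.

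Ywhah, which encodes the eta subunit, stood at 1511, 1413 and 1304 TPM in the mice of 6 months (10, 11, 17) and at 1148, 1129 and 1162 TPM in those of 24 months (2, 4, 5). The young libraries ranged more widely than the old ones, with no overlap between the ages. Mean levels were 1409 ± 103 and 1146 ± 16.4 TPM (SD, n = 3 each), and the fitted log2 fold change was -0.41 (SE 0.09).

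For Ywhag, the gene of the gamma subunit, the values were 626, 617 and 586 TPM at 6 months and 484, 485 and 518 TPM at 24 months. Mouse 5 was the highest of the old group and still lay below mouse 17, the lowest of the young group. The log2 fold change was -0.41 (SE 0.08) from means of 609 ± 21.0 and 496 ± 19.4 TPM (SD, n = 3 each).

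Ywhab, the gene of the beta subunit, was at 1096, 1086 and 1042 TPM at 6 months and at 952, 982 and 935 TPM at 24 months. Spread within an age was small, with a coefficient of variation of 2.99% and 2.53% for CPM. The 2 groups did not overlap, and the log2 fold change was -0.28 (SE 0.08).

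In Ywhaq, which encodes the theta (tau) subunit, levels of 240.4, 240.3 and 212 TPM at 6 months stood beside 195, 210.1 and 197 TPM at 24 months. Mouse 17 at 6 months and mouse 4 at 24 months nearly met. The log2 fold change was -0.32 (SE 0.09).

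Ywhaz, the zeta gene, overlapped between the ages in TPM, at 1429, 1142 and 1221 TPM against 1194, 1079.5 and 1067 TPM. Mouse 10 lay above all others, and the 6-month CPM values varied by 12.4% (coefficient of variation), the widest of the 6 Ywha genes. In CPM with TMM scaling, the highest old value (1290.4) lay below the lowest young value (1328). Its log2 fold change was -0.30 (SE 0.11).

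Ywhae, the epsilon gene, was at 2422, 2153 and 2146 TPM at 6 months and at 2288, 2244 and 2000.4 TPM at 24 months. Mice 2 and 4 lay between the young libraries. The log2 fold change was -0.16 (SE 0.09), and for Sfn it was -0.09 (SE 0.29).

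All 7 members had passed the minimum of 10 counts over the 6 libraries, and the fitted value was lower at 24 months in 7 of 7 (5 of 7 with library totals), with a median of -0.30. By CPM with TMM scaling, 6 of the 7 did not overlap between the ages and were lower, beside 16.2% of all genes tested and 54.5% of the 864 most abundant ones. Calls past a threshold are not given for the members, since the same contrast chose them. Over all genes, 0 of 32905 passed 1% FDR, the threshold of the study, in edgeR's quasi-likelihood fit (10096 at an unadjusted p under 0.05). At that threshold 227 passed with DESeq2 and 1703 with edgeR's likelihood ratio test. The study itself did report differentially expressed genes at 1% FDR, from edgeR after a filter of its own.

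In the main fit with TMM scaling, 86.2% of the 864 most abundant genes were fitted lower at 24 months. That share was 52.5% with library totals and 71.5% with filterByExpr. Against the median of the genes above 1 CPM, Ywhag and Ywhah lay at -0.27 each, Ywhaq at -0.17, Ywhaz at -0.15 and Ywhab at -0.14. Ywhae lay at -0.01, at the middle of such genes, and Sfn at 0.05. Of the 864 genes, 9.72% had a lower log2 fold change than Ywhag and 9.84% a lower one than Ywhah, against 63.3% for Ywhae. With library totals Ywhae turned to 0.04 and Sfn to 0.10, and the other 5 stayed lower, from -0.22 for Ywhag and Ywhah to -0.09 for Ywhab. Relative to the median, values over all count fits ran from -0.30 to -0.24 for Ywhag, from -0.33 to -0.21 for Ywhah, from -0.24 to -0.14 for Ywhaq, from -0.16 to -0.10 for Ywhab, from -0.06 to 0.07 for Ywhae and from -0.03 to 0.23 for Sfn. Ywhaz ran from -0.22 to -0.05, the last being its value without mouse 10.

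**Figure D2:**
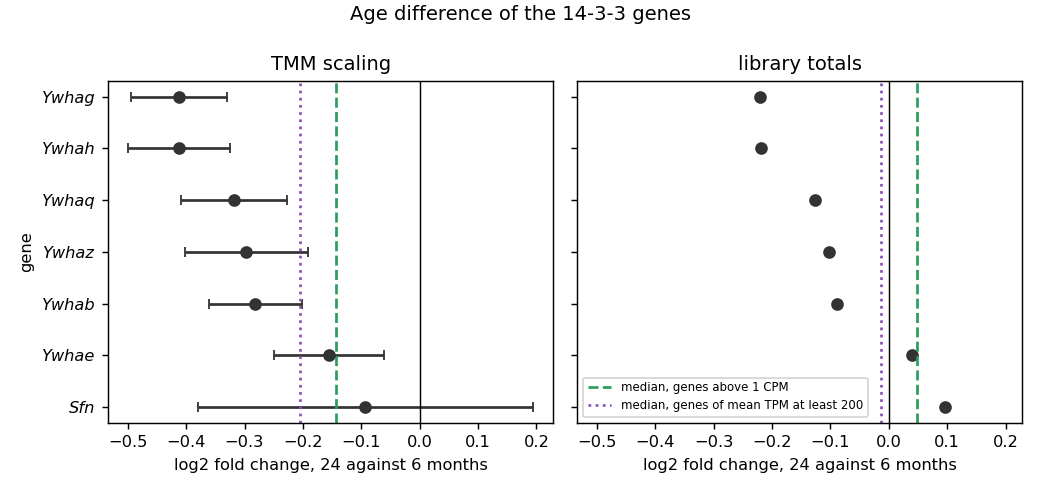
Log2 fold change (x axis, 24 against 6 months) of each 14-3-3 gene (y axis) with TMM scaling (left, bars are SE) and with library totals (right, no bars), beside the medians of genes above 1 CPM (green dashed) and of the 864 most abundant genes, those of 200 TPM or more (purple dotted). Ywhag and Ywhah lie left of both medians under either scaling, and Ywhae lies between the 2 medians under both.

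In the makeup of the family, the shares of 2 members differed between the ages without overlap. Summed over the 7 genes, the family stood at 7324, 6653 and 6512 TPM at 6 months and at 6261, 6131 and 5880.2 TPM at 24 months, or 0.651% to 0.732% and 0.588% to 0.626% of all TPM. The means were 6830 ± 434 and 6091 ± 193 TPM (SD, n = 3 each), 10.8% lower at 24 months, without overlap. As a share of all counts, which is not per length, the family took 0.608% to 0.674% at 6 months and 0.557% to 0.622% at 24 months, which overlapped. Ywhae made up 33.1%, 32.4% and 33.0% of the sum in the young mice and 36.5%, 36.6% and 34.0% in the old ones, higher without overlap. Ywhah made up 20.6%, 21.2% and 20.0% against 18.3%, 18.4% and 19.8%, lower without overlap. The shares of the other 5 overlapped. A share does not depend on the scaling between libraries, and with 3 against 3 and a contrast that had chosen the genes no test was made.

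Within a library, the TPM of Ywhah over that of Ywhae was 0.624, 0.656 and 0.608 at 6 months and 0.502, 0.503 and 0.581 at 24 months. Mouse 5 was the old mouse nearest to the young ones in this ratio. The means were 0.629 ± 0.0248 and 0.529 ± 0.0453 (SD, n = 3 each), without overlap. For Ywhag over Ywhae the mean was 16.1% lower, but mouse 5 (0.2589) lay just above mouse 10 (0.2583). Ywhaq over Ywhae was 10.6% lower, without overlap but with mouse 5 (0.0984) next to mouse 17 (0.0990), whereas Ywhab and Ywhaz over Ywhae overlapped.

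**Figure D3:**
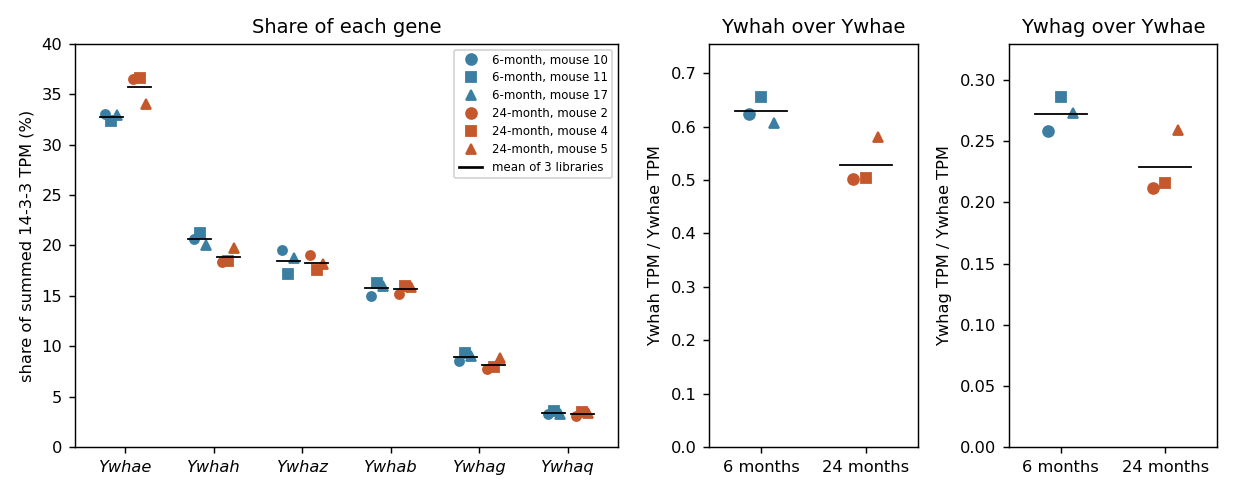
Share of each Ywha gene in the summed 14-3-3 TPM (left, percent), and the TPM ratios of Ywhah to Ywhae (middle) and Ywhag to Ywhae (right), for each library, with blue for 6 months, orange for 24 months and a black line at each mean. The share of Ywhae is higher (34.0% to 36.6% against 32.4% to 33.1%) and the Ywhah ratio lower (0.502 to 0.581 against 0.608 to 0.656) in all 3 old mice.

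Summed neuron markers and the summed family both had a lower mean at 24 months, but not in the same order of mice. All 8 markers (Snap25, Syt1, Rbfox3, Tubb3, Stmn2, Slc17a7, Gad1 and Gad2) were fitted lower at 24 months, and 3 passed 10% FDR, namely Stmn2 (log2 fold change -0.45, SE 0.08), Syt1 (-0.40, SE 0.11) and Tubb3 (-0.36, SE 0.08). These 3 of 8 stand beside the 34.3% of the 864 most abundant genes that were called lower. Not all 8 belong to that class of 200 TPM or more. Stmn2 averaged 143 TPM at 6 months and stood at 109 to 117 TPM at 24 months, and Slc17a7 also lay below it. With library totals Rbfox3 came to 0.02 and Slc17a7 to 0.13, and Slc17a7 had a mean of 147 TPM at 6 months and 152 TPM at 24 months. The summed level of the 8 was 4613 to 5273 TPM at 6 months and 3729.6 to 4707 TPM at 24 months, which overlapped, with none of the 8 at 0. Among the old mice, mouse 2 had the highest family sum and the lowest neuron sum, and mouse 5 the reverse. The family sum over the neuron marker sum was 1.39, 1.40 and 1.41 in the young mice and 1.68, 1.45 and 1.25 in the old ones, so the old mice lay on both sides of the young ones. This ratio rests largely on Snap25, which held 2982 of 5273 TPM in mouse 10 and 1997 of 3729.6 TPM in mouse 2. Over Tubb3 alone, Ywhab was higher without overlap, at 2.12 to 2.23 against 2.04 to 2.11 at 6 months, and the other Ywha genes overlapped. Astrocyte markers summed to 1178 to 1255 TPM against 1299.7 to 1373 TPM and microglia markers to 506 to 536 TPM against 562 to 646 TPM, both higher at 24 months without overlap. In the fit with TMM scaling, however, 4 of the 6 astrocyte markers and 3 of the 6 microglia markers were fitted lower. Oligodendrocyte markers summed to 1357 to 2144 TPM against 800.3 to 2484 TPM and overlapped. Of 6 astrocyte markers, 1 passed 10% FDR, Gfap, which was higher (0.69, SE 0.21). Of 6 microglia markers, 2 passed in opposite directions, Tmem119 higher (0.34, SE 0.10) and Csf1r lower (-0.34, SE 0.10), and of 6 oligodendrocyte markers 0 did. Over all genes 10.0% were called higher and 8.33% lower. Red blood cell markers (4, summed 340.3 to 436 against 274 to 383 TPM, 1 lower past 10% FDR), meninges (21.1 to 52.0 against 22.8 to 63.9 TPM), choroid plexus (40.5 to 118 against 53.0 to 121 TPM) and endothelial markers (93.5 to 119.8 against 81.8 to 131 TPM) overlapped. The part of cell type makeup in the 14-3-3 levels was not tested.

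**Figure D4:**
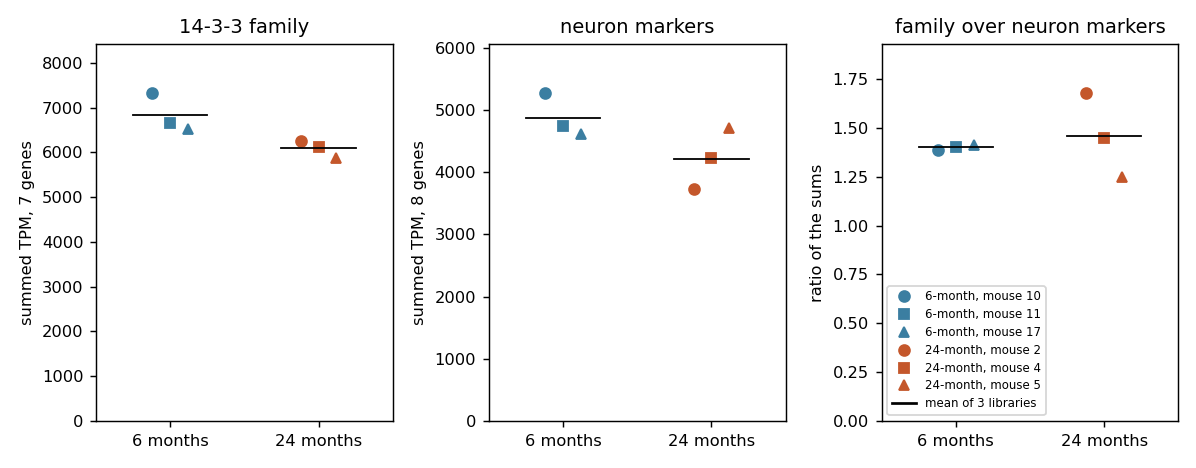
Summed TPM of the 7 14-3-3 genes (left), summed TPM of 8 neuron markers (middle) and the ratio of the sums (right) in each library, with blue for 6 months, orange for 24 months and a black line at each mean. The ratio lies within 1.39 to 1.41 in the young mice and spreads from 1.25 to 1.68 in the old ones. Snap25 is the largest part of the neuron marker sum.

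The genes most like Ywhah over the 6 libraries were Tbc1d8, Pfkp, Wasf1, Sec23ip and Lancl2. Likeness was the root mean square difference in log2(TPM + 1) after each gene was centred on its own mean, over 6 libraries and 9674 genes averaging 10 TPM or more, and ran from 0.0234 to 0.0268 for these 5. Pfkp encodes a phosphofructokinase of glycolysis, and Wasf1 encodes a WAVE protein that drives actin branching. Ywhag came at rank 40 of the 9674, at 0.0416, Ywhaq at rank 342, Ywhab at rank 662, Ywhaz at rank 1763 and Ywhae at rank 3849. Ywhag and Ywhah were the closest pair of members, and Ywhab and Ywhaq the next, at 0.0451. Nearest to the summed family were Rpf1, Gabarapl2, Ifngr2, Derl2 and Tubg1, at 0.0135 to 0.0168. These likenesses are descriptions over libraries that also hold the age difference.

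Partners of the family were taken as 97 genes in 9 lists, covering client proteins that 14-3-3 proteins bind, the kinases that phosphorylate the binding sites and the phosphatases that remove the phosphate. All 97 were tested, and 14 (14.4%) passed 10% FDR, beside 18.4% of all genes. Of the 97, 12 (12.4%) were lower and 2 (2.06%) higher at 24 months, beside 8.33% and 10.0% of all genes, and 0 passed 1% FDR (24 at an unadjusted p under 0.05). Of the 864 most abundant genes, 34.3% were called lower. The share called lower thus depends on level, and none was made for genes at the level of the partners. The same limit holds for the counts by list below. The median log2 fold change was -0.10 over the 97, beside 0.15 over all genes and -0.14 over genes above 1 CPM. The 12 lower calls came to 0 with library totals, with the stricter filterByExpr filter, and without mouse 10, 11, 2 or 4, and were 21 without mouse 5, while the higher calls were 6 with library totals. In the text that follows, adjusted p is that of edgeR's quasi-likelihood test over all genes.

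Among the cytoskeleton and transport clients, 3 of 10 were called lower past 10% FDR and 0 higher. Cfl1, the actin-severing protein cofilin, was at 1054, 1032 and 1030.1 TPM at 6 months and at 917, 864 and 883 TPM at 24 months. All 3 old libraries lay below the young ones (log2 fold change -0.34, SE 0.08, adjusted p = 0.0552). Ctnnb1, beta-catenin, was at 97.3, 106 and 100.4 TPM against 80.1, 88.5 and 83.6 TPM (-0.38, SE 0.09, adjusted p = 0.0539). Arhgef2, a guanine nucleotide exchange factor bound to microtubules, fell by 0.35 (SE 0.12, adjusted p = 0.0897), but its TPM of 90.0 in mouse 5 lay above that of mouse 17, at 85.3.

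Metabolic signalling clients fell in 3 of 9 cases. Irs1, the adaptor of the insulin receptor, was at 4.77, 4.93 and 4.49 TPM against 3.58, 3.97 and 3.47 TPM (-0.48, SE 0.12, adjusted p = 0.0583). Tsc2, the brake on mTORC1, fell by 0.35 (SE 0.10, adjusted p = 0.0636), and Nedd4l, a ubiquitin ligase for sodium channels, by 0.39 (SE 0.10, adjusted p = 0.0570). Neither overlapped between the ages in TPM.

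Transcription regulators that 14-3-3 proteins hold in the cytoplasm moved both ways, with 2 of 15 higher and 1 lower. Hdac7, a class IIa histone deacetylase, was at 3.84, 4.93 and 4.84 TPM at 6 months and at 6.85, 6.69 and 7.60 TPM at 24 months (0.52, SE 0.14, adjusted p = 0.0611). Mlxipl, the carbohydrate response factor ChREBP, was at 1.66, 1.55 and 1.73 TPM against 2.42, 2.32 and 2.73 TPM (0.48, SE 0.16, adjusted p = 0.0893). Hdac9, of the same class as Hdac7, was at 21.8, 19.5 and 19.9 TPM against 17.5, 15.5 and 15.5 TPM (-0.45, SE 0.10, adjusted p = 0.0519). None of the 3 overlapped between the ages. The 4 FOXO factors did not pass, with values of 0.64 (SE 0.26) for Foxo4, 0.37 (SE 0.28) for Foxo1, -0.24 (SE 0.13) for Foxo3 and -0.26 (SE 0.37) for Foxo6.

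Of the 30 kinases, 4 fell and 0 rose. Prkacb, a catalytic subunit of protein kinase A, was at 294, 284 and 259 TPM against 208, 224 and 241 TPM (-0.43, SE 0.09, adjusted p = 0.0526). Sgk1, a kinase induced by glucocorticoids, fell by 0.78 (SE 0.21, adjusted p = 0.0617), from 67.7, 90.3 and 50.4 TPM to 34.8, 42.2 and 53.8 TPM, with an overlap between mice 17 and 5. Pak1, a kinase of the actin cytoskeleton, fell by 0.44 (SE 0.13, adjusted p = 0.0669), also with overlapping TPM, and Pim2, a survival kinase, by 0.42 (SE 0.11, adjusted p = 0.0575).

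In the channel and receptor clients 1 of 5 was called lower past 10% FDR, Chrna4, a nicotinic receptor subunit (-0.60, SE 0.20, adjusted p = 0.0855). Its values of 34.0, 38.2 and 24.2 TPM against 17.1, 26.2 and 25.6 TPM overlapped. No gene passed among 9 kinases of the MAP kinase pathway, 8 cell cycle and cell death clients, 4 monoamine enzymes and 7 phosphatase catalytic subunits. Th, the tyrosine hydroxylase behind the family's Ywha symbols, was scarce, with 25 to 275 counts per library and -1.22 (SE 0.48, adjusted p = 0.125). Ppp3ca, a catalytic subunit of calcineurin, gave -0.17 (SE 0.12, adjusted p = 0.338).

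**Figure D5:**
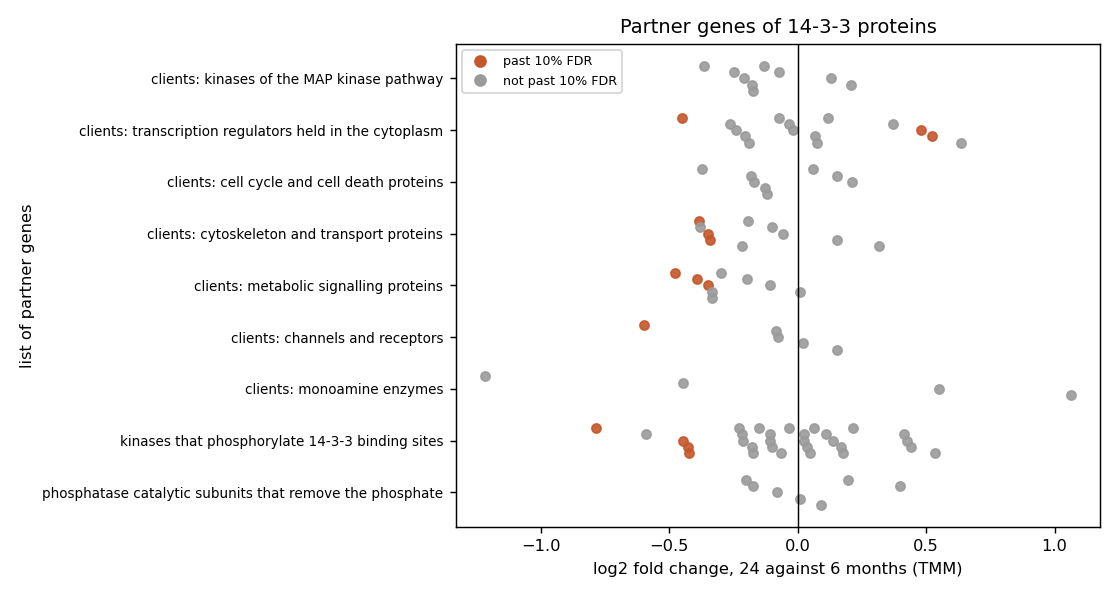
Log2 fold change (x axis, 24 against 6 months, TMM scaling) of each of 97 partner genes in 9 lists (y axis), with orange points past 10% FDR in edgeR and grey points not past it. The 12 lower calls are spread over 5 lists and the 2 higher ones, Hdac7 and Mlxipl, are both transcription regulators.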

How the data were processed

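RNA-seq libraries of 6 mice were made from 10 ng of total RNA with a low input kit that does not mark strand, and sequenced as single 75 base reads. The authors clipped 3 bases at each end (Trim Galore 0.6.4), mapped the reads to GRCm38 with STAR 2.7.3a and counted reads of mapping quality 15 or more on exons with featureCounts (Subread 2.0.0). They deposited counts per gene, whole numbers here, and TPM, which divide those counts by the length of all exons of a gene (within 5% for 100% of 6803 genes checked). Of 55421 gene identifiers, 54673 were found in GENCODE vM21, whose coordinates are given. A mouse was taken as the replicate, since the study gives 3 mice for each age and each label has its own number.

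The members and all lists were chosen with earlier results of these data known. All 7 members are named, along with the 14 partners past 10% FDR, the 5 genes most like Ywhah and most like the sum, and Ywhaq pseudogenes with at least 10 counts. A few other genes (the 4 FOXO factors, Th, Ppp3ca and markers) were named after their values were seen, as were the motifs. Counts of the 32905 genes whose 6 libraries summed to 10 counts or more were fitted with edgeR 4.0.16 (R 4.3.3), TMM scaling and the quasi-likelihood test without covariates, and p-values were adjusted over all genes by Benjamini-Hochberg. Alternatives were DESeq2 1.42.0 (adjusted p not given for 5745 genes), its size factors, library totals, other filters, the likelihood ratio test, log2(TPM + 1) and log2(TPM + 0.1), and each mouse left out. Coding sequences were aligned with Biopython 1.88 and MAFFT 7.526, other steps used pandas 2.3.3, numpy 2.4.6 and scipy 1.17.1 (Python 3.11.15). Depth limits the precision of Sfn, with at most 23 counts in a library, and not that of the Ywha genes.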

Additional observations from a re-analysis of the deposited data

How the results depend on the processing

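With library totals, the log2 fold change of Ywhae turned from -0.16 to 0.040, that of Sfn came to 0.10, and Ywhab, Ywhag, Ywhah, Ywhaq and Ywhaz came to -0.089, -0.22, -0.22, -0.13 and -0.10 (median of the members -0.10, beside -0.30). With filterByExpr, which tested 20490 genes, Ywhab, Ywhae, Ywhag, Ywhah and Ywhaq came to -0.17, -0.040, -0.30, -0.30 and -0.20 (median -0.18). As differences of log2(TPM + 1), the same 5 genes came to -0.17, -0.041, -0.30, -0.30 and -0.20 (median -0.18), and the same rounded values held for log2(TPM + 0.1). The median of genes above 1 CPM moved with the scaling, from -0.14 to 0.05 with library totals and to -0.03 with filterByExpr. The family sum, -0.17 on the log2 scale in TPM, was -0.30 as CPM with TMM scaling. Leaving out 1 mouse at a time gave -0.30 to -0.24 for Ywhab, -0.18 to -0.09 for Ywhae, -0.44 to -0.35 for Ywhag, -0.46 to -0.35 for Ywhah, -0.37 to -0.26 for Ywhaq, -0.34 to -0.19 for Ywhaz and -0.17 to 0.12 for Sfn. Partner genes past 10% FDR, 2 higher and 12 lower, became 6 and 0 with library totals, while the higher count was 1 without the filter and 1 with DESeq2, the lower count was 0 with filterByExpr, and 0 to 3 and 0 to 21 were called with 1 mouse left out. Over all genes, 6041 passed 10% FDR, against 4014 without the filter, 1538 with filterByExpr, 3048 with DESeq2 and 0 to 7997 with 1 mouse left out. At 1% FDR 0 passed, against 42 without the filter, 227 with DESeq2, 1703 with the likelihood ratio test and 0 to 13 with 1 mouse left out. With the principal transcript length, Ywhae and Ywhah no longer differed past the threshold (0.014) and Ywhah exceeded Ywhaz (0.85). The causes were not tested. No paired analysis was possible because the libraries of the 2 ages came from different mice.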
